A study of Rattus norvegicus with 58 samples.

Results

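Ccn2 and 8 genes linked to it through matrix growth signalling were followed in the liver and kidney of male rats given 4-methylcyclohexanemethanol by gavage. The genes are Ccn1, Ccn2, Ankrd1, Tgfb1, Tgfbr1, Eng, Lama3, Thbs1 and Fn1. They were chosen by kidney values of this study, Ccn2 being lower at 0.1 and 10 mg/kg than in kidney controls, so kidney values at the low doses are given below as a description, with no test. A probe set, the group of short probes that reads 1 transcript on the array, was taken for a gene when that gene was its only annotated symbol. Of the 9 genes, 8 had such a probe set, and these 8 held 10 of the 31099 probe sets in the table, 2 each for Ankrd1 and Tgfbr1. No probe set carried Thbs1 as its only symbol, so its expression was not analysed here.

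The 58 arrays, 29 of liver and 29 of kidney, came from male Harlan Sprague-Dawley rats dosed for 5 days with 4-methylcyclohexanemethanol, a cyclic alcohol used in coal washing. In each organ the groups were 0 mg/kg (the control, 5 biological replicates) and 0.1, 1, 10, 100, 300 and 500 mg/kg (4 biological replicates each), all by gavage and of the same strain and sex. Total RNA of each organ was read on Affymetrix rat expression arrays, 1 sample per array, and the values are log2 expression levels, so a difference of 1 is a doubling. The number of arrays limits the precision of every value below.

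CCN proteins are secreted into the matrix around cells, where they bind integrins, growth factors and matrix proteins. Ccn2, also known as connective tissue growth factor, and Ccn1 are textbook targets of YAP and TAZ, the co-activators held in check by the Hippo kinases, which act through TEAD transcription factors; Ccn2 is also induced by TGF-beta through its receptors and Smad proteins. In kidney Ccn2 is known from podocytes and from scarring tissue, and in liver from injury and fibrosis.

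The promoters of Ccn2, Ccn1 and Lama3 are shown because Ccn2 and Lama3 each hold 3 copies of letters that TEAD or AP-1 factors are known to bind, on the window from 250 bases before to 50 bases after the gene start, and Ccn1 is the other CCN gene. The sequences are from RefSeq on the rat build GRCr8, and 7 of the 9 genes have a window there. Capitals mark GGAATG on either strand, the core that TEAD factors bind, in Ccn2 and Ccn1, and TGANTCA, the AP-1 element, in Lama3. The windows lie at chr1:22624565-22624864 on the minus strand for Ccn2, at chr2:237225640-237225939 on the minus strand for Ccn1 and at chr18:3952517-3952816 on the plus strand for Lama3, each printed 5′ to 3′ along its gene.
Ccn2: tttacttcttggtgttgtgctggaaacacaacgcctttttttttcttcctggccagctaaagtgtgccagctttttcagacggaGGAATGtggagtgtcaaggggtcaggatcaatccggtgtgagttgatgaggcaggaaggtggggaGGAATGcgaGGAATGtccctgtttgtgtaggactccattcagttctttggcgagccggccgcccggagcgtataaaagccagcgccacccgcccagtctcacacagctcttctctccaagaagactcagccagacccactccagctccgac
Ccn1: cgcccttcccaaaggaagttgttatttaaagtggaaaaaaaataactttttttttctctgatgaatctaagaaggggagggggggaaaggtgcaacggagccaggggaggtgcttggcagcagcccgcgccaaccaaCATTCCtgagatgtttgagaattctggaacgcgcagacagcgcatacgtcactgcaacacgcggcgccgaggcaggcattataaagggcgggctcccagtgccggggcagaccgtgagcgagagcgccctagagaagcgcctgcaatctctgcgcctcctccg
Lama3: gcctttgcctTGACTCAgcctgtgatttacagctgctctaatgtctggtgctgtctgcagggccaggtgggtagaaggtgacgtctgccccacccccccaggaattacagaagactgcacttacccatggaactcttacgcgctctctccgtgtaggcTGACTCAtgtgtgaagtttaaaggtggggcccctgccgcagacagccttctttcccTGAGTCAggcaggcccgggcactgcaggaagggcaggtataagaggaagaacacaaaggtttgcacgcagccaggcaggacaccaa

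Ccn2 held 3 copies of GGAATG, starting 166, 101 and 92 bases before the gene start, and Ccn1 held 1 copy on the other strand, 113 bases before its start. At least 1 copy was found in 14.2% of the 33469 rat promoters of the same length, and 3 or more in 32 of them, or 0.0956%. Thbs1, a matrix protein known to activate latent TGF-beta, had 1 copy, 47 bases before its start, and Tgfb1, Tgfbr1, Eng and Lama3 had none in the window. Both CCN genes also had TATAAA, the letters of a TATA box, 31 bases before the start in Ccn2 and 34 in Ccn1, against 8.80% of all promoters when only the gene strand is read. Lama3 had 3 copies of TGANTCA, starting 240, 92 and 36 bases before its start, and 5 of the 33469 promoters (0.0149%) had 3 or more; 7.33% had at least 1. The full Smad element GTCTAGAC was in none of the 7 windows and in 0.197% of all promoters. Shorter parts of it were not searched, so this does not show that a window lacks a Smad site. None of the matches in the 3 printed windows overlapped another. A match is a string of letters and was not tested as a binding site.

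The organ labels fitted the arrays. The mean of 6 hepatocyte transcripts was 13.09 to 13.51 on the liver arrays and 4.22 to 7.06 on the kidney arrays, and the mean of 5 proximal tubule transcripts was 4.67 to 5.20 in liver and 11.94 to 12.41 in kidney. Of all 14217 genes, 11264 were bright enough to test in liver and 11194 in kidney, which here means above the 40th percentile of its own array on at least 4 arrays of the organ. In kidney, replicate 3 at 300 mg/kg and replicate 3 at 500 mg/kg stood apart for fat cell transcripts, with a mean of 11.98 and 10.89 over 6 adipose genes where the other kidney arrays had 5.17 to 6.64. Control kidney replicate 2 stood apart for hepatocyte transcripts, with a mean of 8.81 over the 3 that were measured in kidney, where the next kidney array had 6.95. Results of the 9 followed genes that use these 3 arrays are given with and without them where a value turned on them. Differences of other genes from the lists below are given with all arrays only.

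Among control rats, at 0 mg/kg, Ccn2 was higher in kidney and Fn1 higher in liver. Ccn2 read 5.73, 6.97, 6.17, 6.68 and 7.31 on the 5 control livers and 10.04, 10.61, 10.15, 10.14 and 10.03 on the 5 control kidneys. The organs did not overlap, and the liver minus kidney difference was -3.62 (SE 0.23, adjusted p = 4.87e-20 by limma with Benjamini-Hochberg adjustment over all genes tested in both organs). These control kidneys are among the arrays by which Ccn2 was chosen, so that p is not independent of the choice. Fn1, which encodes fibronectin, a major product of hepatocytes for plasma, averaged 12.20 ± 0.04 in liver and 8.35 ± 0.29 in kidney (SD, n = 5 each), a difference of 3.85 (adjusted p = 7.95e-31). Whole tissue was read, so fewer cells of a type and less RNA per cell cannot be told apart in this or any later comparison.

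The receptors differed by less between control organs. Tgfbr1, the type I receptor kinase for TGF-beta, averaged 8.97 ± 0.20 in liver and 9.70 ± 0.14 in kidney (difference -0.73, limma adjusted p = 2.66e-10). Eng, the co-receptor endoglin of endothelial cells, averaged 8.66 ± 0.11 in liver and 8.13 ± 0.13 in kidney (difference 0.53, limma adjusted p = 3.20e-09). Ccn1 at 5.86 ± 0.43 in liver and 6.13 ± 0.56 in kidney, and Lama3 at 7.15 ± 0.17 in liver and 7.14 ± 0.09 in kidney, did not pass the test, with differences of -0.27 (95% interval -0.79 to 0.26) and 0.01 (-0.27 to 0.30). So 4 of the 6 genes tested in both organs were called, and 76.1% of all genes were called in the same comparison, so the count by itself says nothing about these genes. The sources used here do not say whether the authors normalized liver and kidney jointly, which bears on small differences between organs. The beta-actin 3′ minus 5′ probe difference grows as RNA is degraded. It averaged 1.99 ± 0.14 in control livers and 1.29 ± 0.02 in control kidneys, and its part was not tested.

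Genes of the same pathways were read in the same comparison of control organs. Of 13 measured genes for Hippo kinases, YAP, TAZ and TEAD, 2 were called higher in liver (Tead2 and Tead4) and 9 lower, with Sav1, a scaffold of the Hippo kinases, at -1.72. Yap1, the gene of YAP itself, was not among the 13. Of 19 YAP and TEAD target genes, 2 were called higher in liver (Axl and Nt5e) and 12 lower, Ccn2 among the latter. The median liver minus kidney difference of the 19 was -0.50, where the median over all genes was -0.04. Of all genes 34.8% were called higher in liver and 41.3% lower, and each list count is to be read against these shares. Plau, the urokinase protease, was at 6.59 ± 0.14 in liver and 12.67 ± 0.18 in kidney, and Timp3, an inhibitor of matrix proteases, at 7.17 ± 0.27 in liver and 12.33 ± 0.15 in kidney (SD, n = 5 each), and both were called. Of 17 measured laminins and other basement membrane genes, 0 were called higher and 14 lower in liver, among them Lamb1 (difference -3.54) and Nid1 (-2.30). The interstitial matrix list was split, with 8 of 17 called higher and 8 lower in liver.

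In kidney, Ccn2 was lower on every dosed array than on any control array. The control kidneys read 10.04, 10.61, 10.15, 10.14 and 10.03. At 0.1 mg/kg the 4 arrays read 9.55, 9.16, 9.30 and 9.57, at 1 mg/kg 9.87, 9.22, 9.91 and 9.33, and at 10 mg/kg 9.45, 9.45, 9.29 and 9.60. At 100 mg/kg they read 9.42, 9.74, 9.71 and 9.63, at 300 mg/kg 9.69, 9.40, 9.38 and 9.15, and at 500 mg/kg 9.19, 9.89, 9.33 and 9.87. The 24 dosed arrays thus spanned 9.15 to 9.91 and the 5 controls 10.03 to 10.61, with no overlap at any dose. Ccn2 was the 1 gene of 11194 with all dosed kidney arrays below all controls (0.00893%), and 0 genes had all dosed arrays above; this holds for the kidney values that chose the genes and is a description.

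The low-dose differences, which include the ones that chose the gene, were -0.80 at 0.1 mg/kg, -0.61 at 1 mg/kg and -0.75 at 10 mg/kg. Dosed kidneys lay wholly below controls for 0.724% of genes at 0.1 mg/kg, 0.697% at 1 mg/kg and 0.375% at 10 mg/kg. Ordered from low to high, the group means ran 0.1, 300, 10, 500, 1, 100 and 0 mg/kg, and the gap from 100 to 0 mg/kg was the 1 gap of 6 that exceeded the SDs of both neighbours. The dosed means ran from 9.40 to 9.62.

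The higher doses were tested, although they share their 5 control arrays with the low-dose comparisons and so are not independent of them. At 100 mg/kg Ccn2 averaged 9.62 ± 0.15, against 10.19 ± 0.24 in control kidneys, a difference of -0.57 (SE 0.16, limma adjusted p = 0.978). The difference was -0.79 at 300 mg/kg (adjusted p = 0.071 in the same fit), or 0.579 of the control level, and -0.62 at 500 mg/kg (limma adjusted p = 0.101), or 0.649 of it. All 4 arrays at each dose lay below the control mean. None of the 3 passed the threshold of 0.05, and the 6 kidney genes together had 0 calls by limma at each dose, with 3, 2 and 2 of them at an unadjusted p under 0.05. Of all kidney genes 0% were called at 100 mg/kg, 0.0268% at 300 mg/kg and 0.0268% at 500 mg/kg, and 537, 642 and 1072 of 11194 (4.80%, 5.74% and 9.58%) had an unadjusted p under 0.05. Dosed kidneys lay wholly below controls for 0.804% of genes at 100 mg/kg, 0.661% at 300 mg/kg and 1.13% at 500 mg/kg. Without the 2 adipose-rich kidney arrays the differences were -0.78 at 300 mg/kg (limma adjusted p = 0.277) and -0.54 at 500 mg/kg (limma adjusted p = 0.454). With array quality weights in the fit the 500 mg/kg difference was -0.68 and passed (limma adjusted p = 0.0384), while the fit then called 69 kidney genes in place of 3.

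The comparison of 500 with 100 mg/kg uses no control array. Ccn2 averaged 9.57 ± 0.36 at 500 mg/kg and 9.62 ± 0.15 at 100 mg/kg in kidney, a difference of -0.05 with a 95% interval of -0.39 to 0.29 (limma adjusted p = 0.967). No difference in level between these doses was detectable, and 0.232% of genes were called. Without the 2 adipose-rich kidney arrays the value was 0.03.

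Measures of RNA quality and of other cell types were read beside Ccn2 in kidney. The beta-actin 3′ minus 5′ probe difference, which grows as RNA is degraded, was 1.29 ± 0.02 in controls and 1.36 ± 0.01, 1.33 ± 0.07, 1.35 ± 0.04, 1.32 ± 0.07, 1.29 ± 0.09 and 1.26 ± 0.07 from 0.1 to 500 mg/kg. Its part in the Ccn2 values was not tested. The mean of 6 podocyte markers had group means of 7.709 to 7.87 at the 6 doses, each above the 7.707 of controls, whose arrays ran from 7.48 to 8.12. The mean of 5 proximal tubule markers was likewise above control in all 6 dosed groups, at 12.18 to 12.35 against 12.15 ± 0.15 in controls. That of 4 thick ascending limb and distal tubule markers was below control in all 6, at 11.34 to 11.477 against 11.483 ± 0.11 in controls, lowest at 0.1 mg/kg. In these 3 lists 0 markers were called at 100, 300 or 500 mg/kg, and the part of these nephron cells in the Ccn2 values was not tested. The mean of 8 endothelial markers was 7.36 to 7.54 at 500 mg/kg and 7.41 to 7.60 in controls. The mean of 7 macrophage and lymphocyte markers was 6.23 to 6.49 at 500 mg/kg and 6.46 to 6.67 in controls, with all 7 below their control mean and 0 called, and its part was not tested. The mean of the 3 measured hepatocyte markers was 5.32 to 5.76 at 500 mg/kg and 5.35 to 8.81 in controls, and every dosed group mean, 5.55 to 5.89, was below the control mean of 6.23, with 0 called at 100, 300 or 500 mg/kg. That control mean was raised by replicate 2, at 8.81, as the other controls read 5.58, 5.35, 5.83 and 5.57. Control replicate 2 was also the control with the highest Ccn2, 10.61. Without it the Ccn2 differences were -0.68 at 300 mg/kg (limma adjusted p = 0.254) and -0.52 at 500 mg/kg (limma adjusted p = 0.291). The mean of 7 stromal and smooth muscle markers was 6.97 to 7.30 at 500 mg/kg and 6.79 to 7.09 in controls, with 5 of the 7 above their control mean and 0 called. The part of hepatocyte, stromal and smooth muscle RNA was not tested. The mean of 17 immediate early genes, which respond to stimuli within minutes, had group means of 6.82 to 6.94 at the 6 doses and 6.86 in controls.

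**Figure D1:**
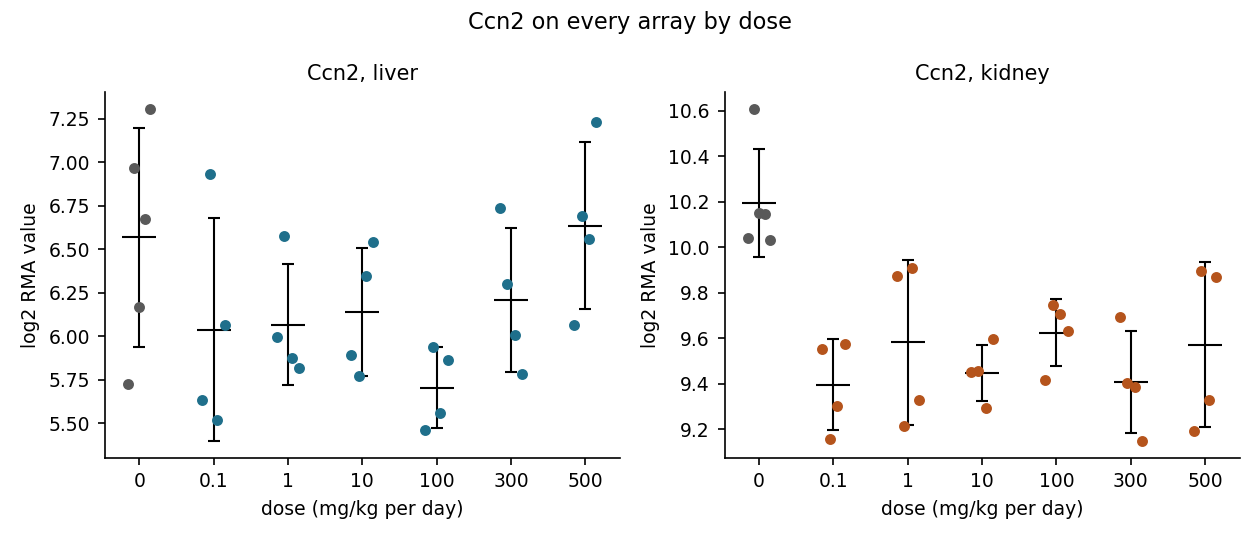
Ccn2 log2 values on every array (points) with the group mean (horizontal bar) and SD (vertical bar), by dose in mg/kg, for liver (left) and kidney (right); the axes have different ranges. All 24 dosed kidney arrays sit at 9.15 to 9.91, under the 5 kidney controls at 10.03 to 10.61, while dosed and control livers overlap.

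In liver the level of Ccn2 was lower and more scattered, and no dose group stood clear of the controls. Control livers read 5.73, 6.97, 6.17, 6.68 and 7.31. The arrays read 5.63, 6.93, 5.52 and 6.06 at 0.1 mg/kg, 5.997, 6.58, 5.88 and 5.82 at 1 mg/kg, and 5.89, 5.77, 6.35 and 6.54 at 10 mg/kg. They read 5.46, 5.94, 5.56 and 5.86 at 100 mg/kg, 6.74, 6.30, 6.01 and 5.78 at 300 mg/kg, and 6.06, 6.69, 6.56 and 7.23 at 500 mg/kg. Every dose group overlapped the controls, whose SD of 0.63 was wider than that of the kidney controls at 0.24.

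The liver differences of Ccn2 from control were -0.53, -0.50, -0.43, -0.86, -0.36 and 0.07 from 0.1 to 500 mg/kg. Leaving out 1 array moved several of these by over 1.5 times. Without control replicate 5, the highest control, the first 5 were -0.35, -0.32, -0.24, -0.68 and -0.18, and without replicate 2 at 0.1 mg/kg the value there was -0.83. At 300 mg/kg the value was -0.57 without control replicate 1 and -0.22 without dosed replicate 4. The 1 at 100 mg/kg had a 95% interval of -1.46 to -0.27 and an adjusted p of 0.999 by limma, in a comparison where 0% of genes were called. At 0.1, 1 and 10 mg/kg 0% of genes were called as well, and 0.0266% were called at 300 mg/kg and 0.959% at 500 mg/kg. The doses from 0.1 to 100 mg/kg had 462, 657, 721 and 414 of 11264 genes at an unadjusted p under 0.05. At 500 mg/kg Ccn2 averaged 6.64 ± 0.48, against 5.71 ± 0.23 at 100 mg/kg, a difference of 0.93 (SE 0.31, limma adjusted p = 0.268), where 0.186% of genes were called. All 4 arrays at 500 mg/kg were above all 4 at 100 mg/kg, as they were for 3.23% of liver genes. The slope of Ccn2 over dose ranks was -0.0032 per rank (limma adjusted p = 0.982), and 1.85% of liver genes were called for a slope. By limma 0 of the 7 liver genes were called in any of these 8 comparisons, and an unadjusted p under 0.05 was reached by Ccn1 and Lama3 at 10 mg/kg, by Ccn2 at 100 mg/kg and by Ccn2, Tgfb1 and Tgfbr1 between 500 and 100 mg/kg, where 10.2% of all liver genes reached it.

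The response in liver was set against that in kidney in 1 fit of all arrays. Its kidney side rests on the 5 control kidneys by which Ccn2 was chosen, so its p-values for Ccn2 are not independent of that choice. For Ccn2 the liver minus kidney difference in effect was -0.29 at 100 mg/kg, 0.43 at 300 mg/kg and 0.69 at 500 mg/kg, the last with a 95% interval of -0.000769 to 1.38 (limma adjusted p = 0.585). Leaving out 1 array at a time, these ran from -0.50 to -0.11, from 0.21 to 0.61 and from 0.48 to 0.88, the low end of each without liver control replicate 1. By limma 0 of the 6 genes were called at any of the 3 doses, with Eng at 300 mg/kg the 1 value at an unadjusted p under 0.05, and 0%, 0% and 0.122% of all genes were called at 100, 300 and 500 mg/kg. A different response of Ccn2 in the 2 organs was therefore not shown.

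**Figure D2:**
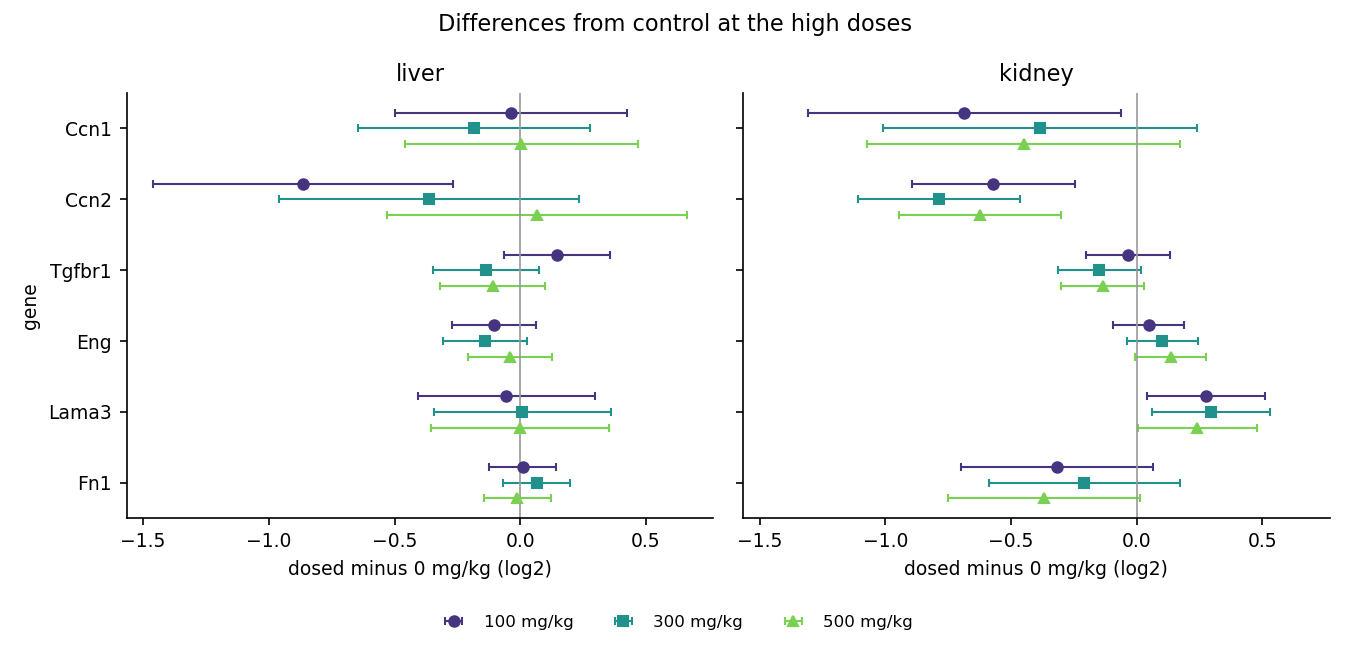
Difference of each gene from the control of its own organ (log2, dosed minus 0 mg/kg) at 100, 300 and 500 mg/kg in liver (left) and kidney (right), with 95% intervals from the limma fit before adjustment for many genes. Ccn2 in kidney lies at -0.57, -0.79 and -0.62, and Lama3 in kidney at 0.28, 0.29 and 0.24.

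Ccn1, a secreted relative of Ccn2 that also binds integrins, varied widely between rats and was not called. In kidney the controls read 5.86, 6.23, 5.33, 6.78 and 6.45. At 100 mg/kg the arrays read 6.35, 5.38, 4.94 and 5.11, and at 500 mg/kg 5.04, 6.40, 5.39 and 5.89. The groups overlapped, and the difference was -0.69 at 100 mg/kg (SE 0.30, limma adjusted p = 0.978), -0.38 at 300 mg/kg and -0.45 at 500 mg/kg (limma adjusted p = 0.661). The values turned on single arrays. At 300 mg/kg the difference was -0.22 without control replicate 4 and -0.58 without control replicate 3. At 500 mg/kg it was -0.29 without control replicate 4, -0.24 without dosed replicate 1 and -0.69 without dosed replicate 2. Every dosed kidney mean was below the control mean of 6.13. In liver the highest mean was at 10 mg/kg, where the arrays read 5.98, 5.77, 7.06 and 6.94, against 5.47, 6.17, 5.58, 6.46 and 5.63 in controls. That difference was 0.58 (SE 0.23, limma adjusted p = 0.751), or 0.37 without replicate 3 at 10 mg/kg, and the 2 high arrays lay above all controls while the other 2 lay among them.

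Ankrd1, an ankyrin repeat protein known from stretched muscle and another YAP target, was not above the brightness limit on any array. Its 2 probe sets read 3.27 to 4.15 and 3.62 to 4.32 in liver, and 3.59 to 4.34 and 3.44 to 4.08 in kidney. The 40th percentile of an array was 4.61 to 4.71 in liver and 4.62 to 4.70 in kidney, so no change in Ankrd1 could be read. It was tested in neither organ.

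Tgfb1, which encodes the ligand TGF-beta 1, was near the brightness limit, above it on 17 of 29 liver arrays and 1 of 29 kidney arrays, and was tested in liver. At 500 mg/kg the livers read 4.58, 4.52, 4.49 and 4.65, against 4.84, 4.75, 4.86 and 5.08 at 100 mg/kg and 4.69, 4.88, 5.08, 4.41 and 4.47 in controls. The 500 mg/kg arrays were below all those at 100 mg/kg, as they were for 2.43% of liver genes, and within the controls. The difference of 500 from 100 mg/kg was -0.32 (SE 0.14, limma adjusted p = 0.442) and from control -0.15 (limma adjusted p = 0.695), the second being -0.05 without control replicate 3 and -0.22 without control replicate 4. In kidney its level was 4.12 to 4.70 over all arrays.

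The receptor Tgfbr1 was called at no tested dose in either organ on its brighter probe set. In liver the arrays read 8.73 to 9.31, and 500 mg/kg averaged 8.86 ± 0.15, against 9.12 ± 0.18 at 100 mg/kg and 8.97 ± 0.20 in controls. The difference of 500 from 100 mg/kg was -0.26 (SE 0.11, limma adjusted p = 0.407). In kidney the differences at 100, 300 and 500 mg/kg were -0.03, -0.15 and -0.14, the last with a limma adjusted p of 0.617. Without control replicate 4, the highest control at 9.93, they were 0.02, -0.09 and -0.08. The other probe set of Tgfbr1 read 3.15 to 4.02 in liver and 3.23 to 3.80 in kidney, above the brightness limit on 0 arrays, and was not tested.

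Eng was higher in kidney at 1 mg/kg as a described value. The 1 mg/kg kidneys read 8.53, 8.38, 8.33 and 8.52, against 8.25, 8.15, 8.20, 8.13 and 7.91 in controls. All 4 lay above all controls, a difference of 0.32, where dosed kidneys lay wholly above controls for 1.21% of genes. The mean of the 8 endothelial markers was 7.49 to 7.82 at 1 mg/kg and 7.41 to 7.60 in controls, the group mean of 7.64 at that dose being the highest of the 7 groups, and its part in the Eng value was not tested. At the neighbouring doses Eng overlapped the controls, with differences of 0.09 at 0.1 mg/kg and 0.01 at 10 mg/kg. At 500 mg/kg the kidneys read 8.32, 8.23, 8.24 and 8.25, each above the control mean of 8.13, and the difference of 0.13 had a 95% interval of -0.01 to 0.28 (limma adjusted p = 0.547). Without control replicate 5, the lowest control, it was 0.08. In liver, values ran 8.36 to 8.82 with differences of -0.14 to 0.09.

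Lama3, the laminin alpha 3 chain of epithelial basement membranes, lay above the kidney controls at the low doses. The controls read 7.22, 7.14, 6.997, 7.18 and 7.17. The 0.1 mg/kg kidneys read 7.70, 7.83, 7.59 and 7.66, the 1 mg/kg kidneys 7.37, 7.44, 7.56 and 7.30, and the 10 mg/kg kidneys 7.33, 7.23, 7.44 and 7.23. At 0.1 and 1 mg/kg all 8 arrays lay above the 5 controls, at 1 mg/kg by less than the SD of either group. At 10 mg/kg the lowest array, at 7.2250, and the highest control, at 7.2249, were a near tie. The beta-actin 3′ minus 5′ difference was 1.35 to 1.37 at 0.1 mg/kg and 1.26 to 1.31 in control kidneys. At 1 and 10 mg/kg it overlapped the controls, at 1.27 to 1.42 and 1.30 to 1.39, and its part in the Lama3 values was not tested. The arrays at the 3 doses lay above the controls with differences of 0.55, 0.28 and 0.16, and dosed kidneys lay wholly above controls for 1.15% of genes at 0.1 mg/kg, 1.21% at 1 mg/kg and 1.26% at 10 mg/kg; these are described values.

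At 300 mg/kg Lama3 read 7.49, 7.42, 7.46 and 7.38 in kidney, again above every control, and 0.715% of genes did the same. The difference was 0.29 (SE 0.11, limma adjusted p = 0.831). At 100 and 500 mg/kg the groups overlapped the controls, with differences of 0.28 (adjusted p = 0.978 by limma) and 0.24 (limma adjusted p = 0.503). Without replicate 1 at 100 mg/kg, at 7.77, the difference there was 0.16. At 500 mg/kg the highest of the 4 arrays, 7.85, was replicate 3, which had high adipose transcripts. Without that array the difference at 500 mg/kg was 0.09 (limma adjusted p = 0.944). In liver Lama3 overlapped the controls at every dose, and its lowest mean, 6.79 ± 0.19 at 10 mg/kg, was 0.37 below the control mean of 7.15 (limma adjusted p = 0.771).

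Fn1 was level in liver and uneven in kidney. Liver arrays spanned 12.08 to 12.45 over all 7 groups, and the 6 differences from control lay between -0.01 and 0.10. At 500 mg/kg the kidneys read 7.78, 8.39, 7.79 and 7.98, against 7.88, 8.53, 8.65, 8.39 and 8.30 in controls. At that dose 3 of the 4 lay below the control mean, and the difference was -0.37 (SE 0.19, limma adjusted p = 0.540). At 0.1 mg/kg the kidneys read 8.004, 7.90, 7.81 and 7.96, overlapping the lowest control, with a described difference of -0.43.

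**Figure D3:**
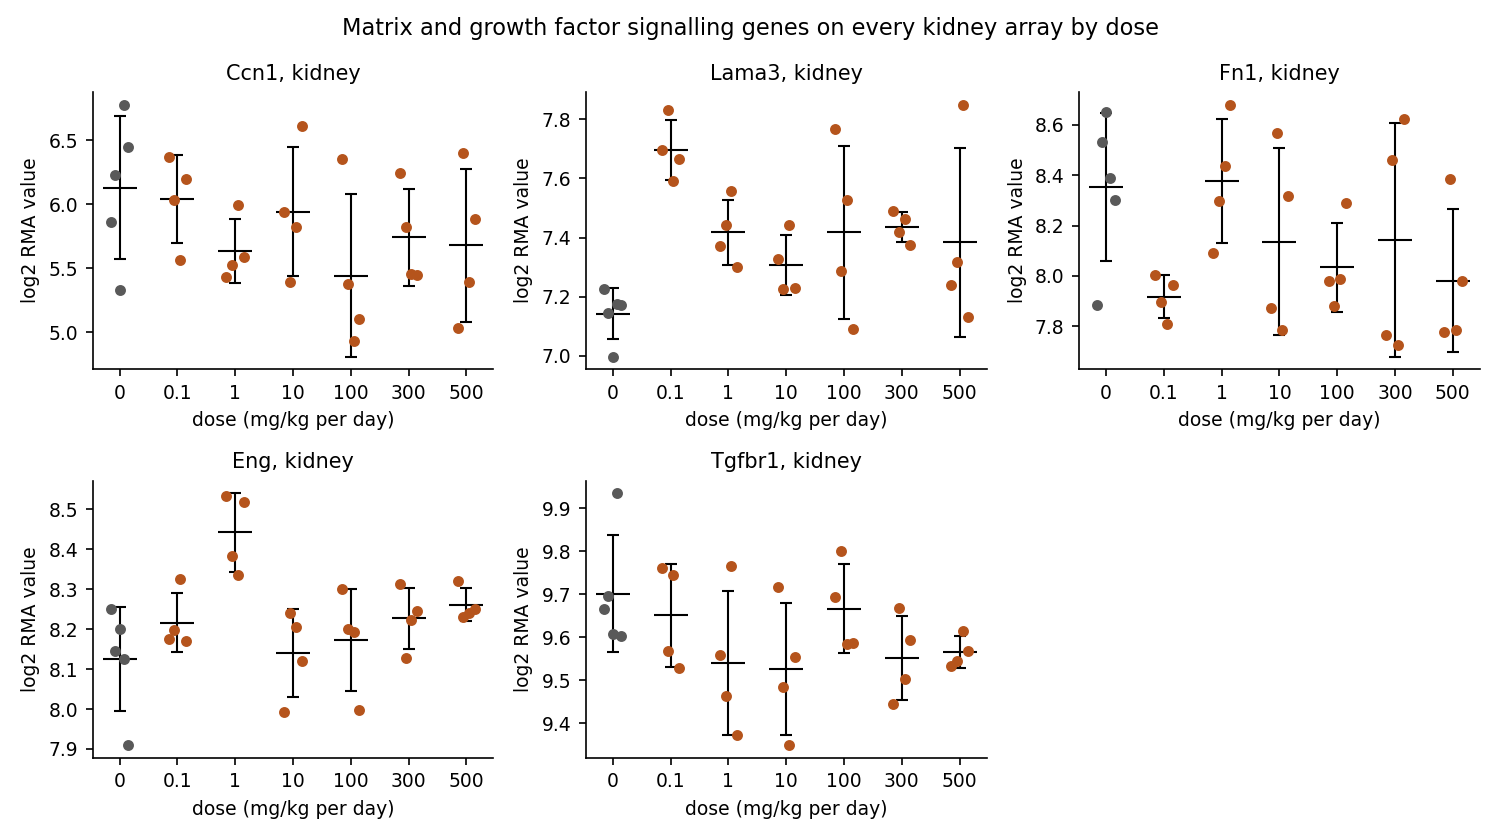
Log2 values of Ccn1, Lama3, Fn1, Eng and Tgfbr1 on every kidney array (points) with group mean and SD (bars), by dose in mg/kg; each panel has its own range. Lama3 at 0.1, 1 and 300 mg/kg lies above the 5 controls at 6.997 to 7.22 and at 10 mg/kg nearly touches the highest of them, and Eng lies above its controls at 1 mg/kg.

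**Figure D4:**
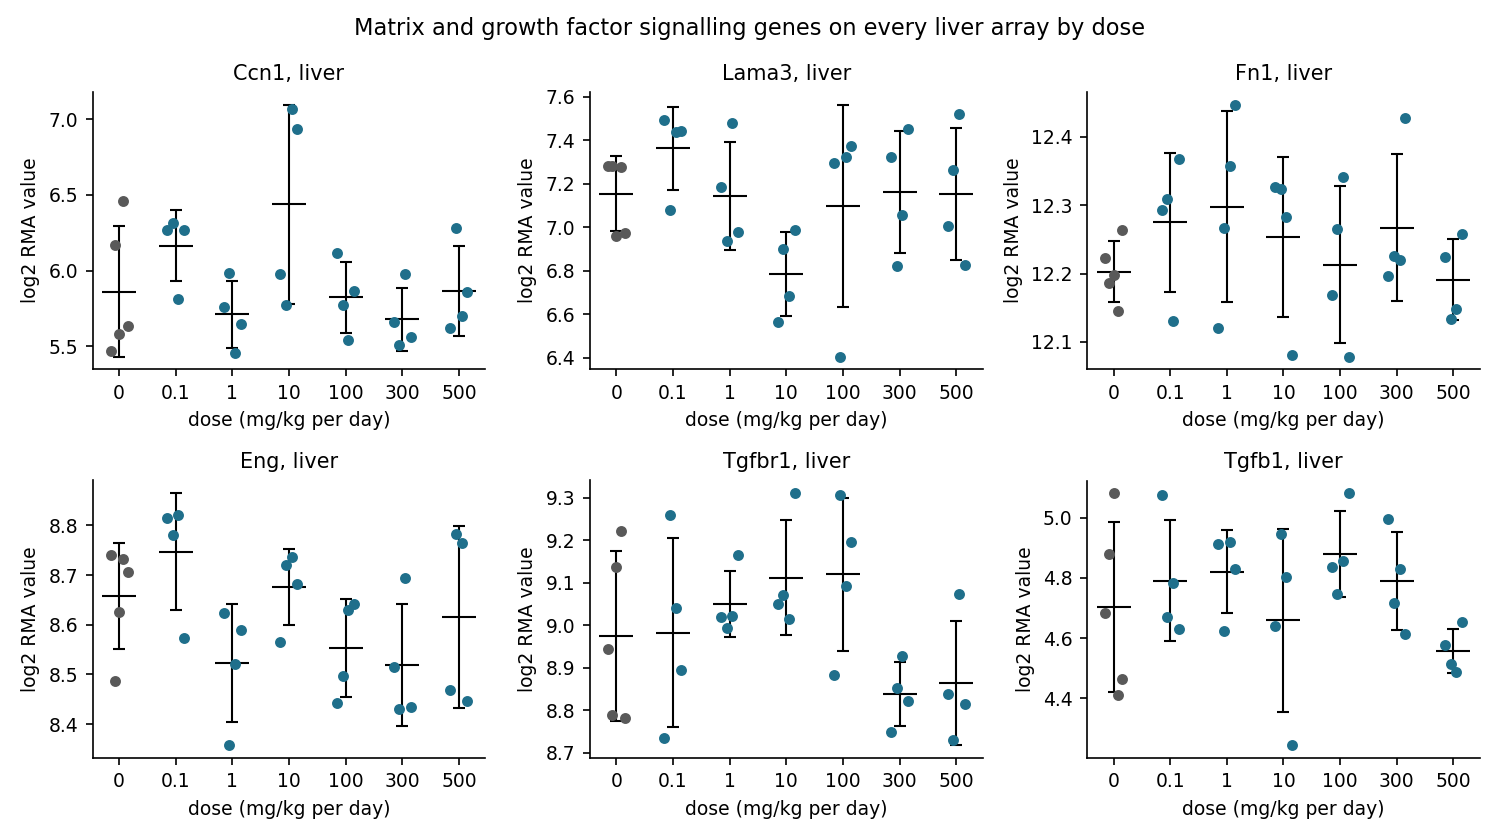
Log2 values of Ccn1, Lama3, Fn1, Eng, Tgfbr1 and Tgfb1 on every liver array (points) with group mean and SD (bars), by dose in mg/kg; each panel has its own range. Dosed and control arrays overlap in every panel, and Fn1 stays between 12.08 and 12.45.

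The wider pathway was read through 12 gene lists. These count Ccn2 and others of the 9 genes, so they are not separate from the choice of Ccn2. In kidney at 100, 300 and 500 mg/kg, 0 genes of the 12 lists were called by limma in either direction, with 9, 17 and 16 of 155 at an unadjusted p under 0.05, where 4.80%, 5.74% and 9.58% of all genes were. Of 21 measured YAP and TEAD target genes at 500 mg/kg, 7 were above and 14 below control, Ccn2 among the latter. The median of the 21 was -0.07 beside 0.02 over all genes. Nt5e, which makes adenosine outside the cell, was at -0.31 (limma adjusted p = 0.118), and Igfbp3, a carrier of insulin-like growth factors, at 0.68 (limma adjusted p = 0.416). Tead1, the factor YAP binds, was at -0.15 (limma adjusted p = 0.424).

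Among the TGF-beta ligands in kidney at 500 mg/kg, Tgfb3 had the smallest p, with a difference of 0.38 (limma adjusted p = 0.230). Of 16 measured TGF-beta target genes, 6 were above and 10 below control, Ccn2 and Fn1 among the latter. The median of the 16 was -0.04. Nid1, a linker of basement membranes, was at -0.41 (limma adjusted p = 0.164) in a list of 18 where 6 were above and 12 below. Plau was at -0.30 (limma adjusted p = 0.263) and Itga9, an integrin chain, at -0.24 (limma adjusted p = 0.302). The 19 interstitial matrix genes had 13 above and 6 below, among them Lum, the proteoglycan lumican, at 1.13 (limma adjusted p = 0.437). Control kidneys averaged 4.01 ± 0.68 for Lum, under the brightness limit of 4.62 to 4.70, so its difference starts near the floor. The group at 500 mg/kg includes the array with adipose transcripts.

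In liver at 500 mg/kg 0 genes of the 12 lists were called by limma, with 22 of 148 at an unadjusted p under 0.05, where 1566 of all 11264 genes (13.9%) were. Of 17 measured interstitial matrix genes, 2 were above and 15 below, with a median of -0.22 beside 0.01 over all genes, and Sparc, a collagen-binding matrix protein, was at -0.29 (limma adjusted p = 0.0792). Of 18 basement membrane genes 3 were above and 15 below, and of 11 proteases and inhibitors 1 was above and 10 below, with Lox, which cross-links collagen, at -1.68 (limma adjusted p = 0.176). Itgb3, an integrin chain, was at -0.31 (limma adjusted p = 0.0635), and Ltbp1, which holds latent TGF-beta in the matrix, at -0.39 (limma adjusted p = 0.108). Egr1, an immediate early gene, was at -2.32 with an SE of 0.63 (limma adjusted p = 0.0759), and its control livers had an SD of 0.90. In the same list Atf3 went the other way, at 0.97 (limma adjusted p = 0.349), and Ier2 was at -0.51 (limma adjusted p = 0.471).

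Beside these liver values, all 5 hepatic stellate markers were below control at 500 mg/kg with 0 called, and of 7 macrophage and lymphocyte markers 2 were above and 5 below with 1, Cd74, called lower (limma adjusted p = 0.0373), where 0.471% of all genes were called lower. The mean of 8 endothelial markers was 7.004 to 7.139 at 500 mg/kg and 7.138 to 7.28 in controls, with 2 markers above and 6 below and 0 called, among them Tie1, an endothelial receptor kinase, at -0.36 (limma adjusted p = 0.124) and Emcn, the endothelial sialoprotein endomucin, at -0.25 (limma adjusted p = 0.216). The part of stellate, immune and endothelial cells in the matrix values was not tested. Over the dose ranks of liver, Tgfbi, a matrix protein induced by TGF-beta, was the 1 gene of 148 in the 12 lists that passed, falling by 0.03 per rank (limma adjusted p = 0.0400), where 1.85% of all liver genes passed. Over the same ranks 2 of the 7 macrophage and lymphocyte markers were called lower, Adgre1 at -0.07 per rank (limma adjusted p = 0.0159) and Csf1r at -0.04 (limma adjusted p = 0.0262), where 1.17% of all genes were called lower, and their part in the Tgfbi value was not tested.

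Within dose groups, Ccn1 and Ccn2 tended to deviate together from rat to rat. Each array was expressed as its deviation from its group mean, over 29 arrays of an organ. In liver Pearson's r was 0.455 (permutation p = 0.0287, adjusted p = 0.543) and Spearman's rho 0.526 (permutation p = 0.0132, adjusted 0.385), and r was 0.430 without the 2 arrays farthest from the median. In kidney r was 0.362 (permutation p = 0.0761, adjusted 0.635) and rho 0.395 (permutation p = 0.0548, adjusted 0.406), and r was 0.427 without the 2 farthest. The tests were two-sided with 100000 resamples within groups, and 36 pairs of these genes were compared, 21 in liver and 15 in kidney. By Pearson's r, 2 had an unadjusted p under 0.05 and 0 passed after adjustment; the second was Lama3 with Fn1 in kidney, at -0.373. Among all genes, Ccn1 ranked 170 of 11263 in liver and 381 of 11193 in kidney for its correlation with Ccn2.

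**Figure D5:**
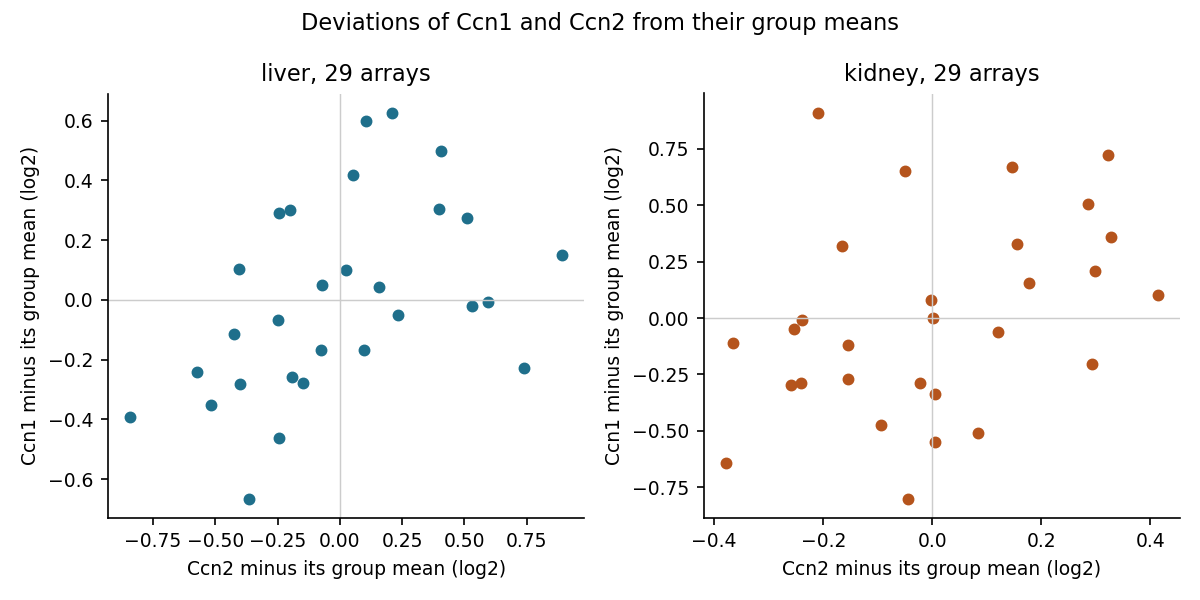
Deviation of Ccn1 from its group mean (vertical axis, log2) against that of Ccn2 (horizontal axis, log2), 1 point for each of the 29 arrays of liver (left) and kidney (right). Pearson's r is 0.455 in liver and 0.362 in kidney, and neither passed after adjustment over 36 pairs.

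The genes most like Ccn2 by the same deviations were different in the 2 organs. In liver they were Gpr146, Aif1, Alpl, Snx2 and Tpm1, with Pearson correlations of 0.70, 0.66, 0.66, 0.65 and 0.63 over 29 arrays. In kidney they were Cers4, Ngb, Plk1, Ppt2 and Sult1c2, at 0.70, 0.68, 0.67, 0.65 and 0.64. By rank correlation 1 of the 5 stayed in the first 5 in liver and 4 of the 5 in kidney. These are descriptions of arrays that share a platform and a normalization, and carry no test.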

How the data were processed

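Liver and kidney RNA in 58 samples was measured on Affymetrix arrays. The deposited values are log2 expression levels per probe set, made by the authors with RMA per the submitters' processing notes, which combines background correction, quantile normalization and summary over probes, so a shift shared by all probes is removed. Its version and whether both organs were normalized together are not given in the sources used here, and scanner intensities were not used here.

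From these values, genes were taken as the brightest probe set with 1 annotated symbol (20826 of 31099 probe sets had 1 symbol, 436 several and 9780 none) and kept when above the 40th percentile of their array on at least 4 arrays of the organ. Differences were fitted with limma 3.58.1 in R 4.3.3 (lmFit, eBayes with intensity trend) over the 7 dose groups of an organ, or 14 groups for comparisons of organs, and adjusted by Benjamini-Hochberg over all genes tested, with a threshold of 0.05. The fit was tested on simulated data. The genes and lists were chosen with earlier results of these data known. Named list genes were those called, otherwise up to 3 with the smallest p at 500 mg/kg. Group came from the labels, which call the replicates biological. Within an organ, deviations of same-numbered replicates of different doses correlated at -0.29 to 0.24 in liver (13 of 84 pairs above 0.1) and -0.36 to 0.67 in kidney (25 of 84 above 0.1), so numbers were not treated as pairs. The labels do not say whether liver and kidney arrays of 1 dose and number came from 1 rat. Their deviations correlated at -0.03 to 0.29 (mean 0.14, 20 of 29 above 0.1), against a mean of -0.04 for other numbers of the same dose (1 of 92 above 0.1). Deviations from a group mean cancel out within the group, so the second mean largely follows from the first and is not a separate baseline. Comparisons of organs treated arrays as independent, with a random block for dose and number as an alternative chosen after seeing the data. Alternatives varied the filter, probe set, variance trend, weights, normalization, samples and replicates. Array medians were 5.26 to 5.32 in liver and 5.33 to 5.38 in kidney.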

Additional observations from a re-analysis of the deposited data

Results flagged for a closer look

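Of 91 groups of 4 or 5 arrays checked for a sample far from the others, 8 held one, where chance gives about 1 in 20. In kidney the control group of Ccn2 had replicate 2 at 10.61, with the next array at 10.15 and the lowest at 10.03, and the control group of Tgfbr1 had replicate 4 at 9.93, with the next at 9.70; without it the Tgfbr1 difference at 500 mg/kg was -0.08 in place of -0.14. Without control replicate 2 the kidney differences of Ccn2 were -0.68 at 300 mg/kg (limma adjusted p = 0.254) and -0.52 at 500 mg/kg (limma adjusted p = 0.291). In liver the low arrays were Ccn1 at 0.1 mg/kg (5.81, next 6.27), Eng at 0.1 mg/kg (8.57, next 8.78), Lama3 at 0.1 mg/kg (7.08, next 7.44) and Lama3 at 100 mg/kg (6.41, next 7.29). The high arrays in liver were Tgfbr1 at 1 mg/kg (9.17, next 9.02) and Fn1 at 300 mg/kg (12.43, next 12.23). The 3 low liver arrays at 0.1 mg/kg were different replicates.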

How the results depend on the processing

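Over 924 alternative values, 903 stayed the same by the rule for their kind, 18 changed sign, 2 moved and 1 passed the threshold. For tested differences the rule was direction and side of the threshold. A value far from the threshold stays the same by this rule even when its size shifts, so the count says little about sizes. Lama3 in kidney at 500 mg/kg, 0.24 in the chosen fit, ran from 0.09 to 0.33 with 1 array left out and always counted as the same. For the described low-dose kidney values of Ccn2 it was a shift under the control SD. For counts and lists of genes it was a change within a set ratio. With array quality weights the kidney comparison of 500 mg/kg with control called 1 of these genes, Ccn2, at -0.68 (limma adjusted p = 0.0384), and 69 genes in all where the chosen fit called 3. Across its other 8 alternatives and each array left out, Ccn2 at 500 mg/kg in kidney ran from -0.73 to -0.50 with adjusted p of 0.0745 to 0.474, and at 300 mg/kg from -0.88 to -0.68 with adjusted p of 0.0588 to 0.396. The liver count at 500 mg/kg was 108 genes in the chosen fit, 263 with array weights, 58 without the intensity trend, 65 with only the compared groups and 33 with the replicate block.

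The sign changes were of values near 0 and none was past the threshold. Leaving out 1 array at a time, Ccn2 in liver at 500 mg/kg against control ran from -0.14 to 0.26, its liver slope from -0.0332 to 0.0261 per rank, and its kidney difference of 500 from 100 mg/kg from -0.160 to 0.0732. Its liver differences from control kept their sign, at -0.83 to -0.35, -0.71 to -0.32, -0.64 to -0.24, -1.07 to -0.68 and -0.57 to -0.18 from 0.1 to 300 mg/kg. With liver and kidney arrays of 1 dose and number as a random block, the comparisons of organs called the same number of these genes, while the count over all genes at 500 mg/kg was 37 in place of 13. With the replicate block, the replicate number as a term, the liver slope was 0.0261 per rank, the same value as without control replicate 5, the 1 array with that number; on the linear dose scale it was 0.000691 per mg/kg. Without both adipose-rich kidney arrays, an alternative chosen after seeing the data, the kidney difference of 500 from 100 mg/kg was 0.0274. Ccn2 in kidney lost or gained no call under the block. By rank correlation 1 of the 5 genes most like Ccn2 in liver stayed. The dim probe sets of Ankrd1 and Tgfb1 in kidney limit what their arrays can show.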
